A study of Mus musculus with 20 samples.

Results

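Open chromatin of fetal mammary stem cells (fMaSC) was set against that of adult luminal progenitors (LP), peak by peak, along 19 mouse autosomes and chromosome X. The members are the nuclear peaks of the authors' pooled lists for these 2 cell types, 79910 for fMaSC and 60030 for LP, or 139940 of the 311456 regions in the 14 deposited lists. Each peak was assigned by position alone: a peak that shared at least 1 bp with a peak of the other list had a partner, and the rest are called fMaSC-only or LP-only. The measurement was ATAC-seq, in which the Tn5 transposase cuts accessible DNA and leaves sequencing adapters there. Of 20 samples in the series, 4 stand behind this pair: 2 fMaSC samples sorted from mammary glands of C57BL6J embryos at embryonic day 18, and 2 LP samples sorted from adult C57BL6J glands. All 4 are labelled wild type mammary gland material, with no transgene or engineered allele named. Basal and mature luminal cells of the same strain (2 adult samples each) serve as context. So do regions that the mouse mammary tumour line PY230, transplanted into syngeneic mice, opens or closes in luminal SOX10-high cells (3 samples) against luminal SOX10-low cells (3 samples). Each list combines both samples of its cell type, and the labels do not say whether these came from separate litters or animals. No error between samples can therefore be given, and no comparison below carries a test. Intervals are exact (Clopper-Pearson) 95% binomial intervals that cover counting error alone, and ranges over 20 chromosomes show how even a share is along the genome. Depth per sample is unknown, since the files hold no counts.

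As background, the late fetal mammary rudiment holds cells that can regenerate a whole gland on transplantation and that carry features of both the luminal and the basal layer. After birth these layers separate. Luminal progenitors are KIT-positive, ELF5-expressing cells of the inner layer that give rise to the milk-secreting alveolar cells, while mature luminal cells sense oestrogen and progesterone and basal cells contract. Regulatory elements that a cell lineage uses are commonly accessible in it and are often distal to genes, so sites open in 1 population and not in another mark candidate elements of its state. The peak lists carry positions in mouse build mm9 without gene names, so regions are given by position, and the labelled identities could not be checked against marker genes.

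With all deposited peaks, a larger share of the LP list than of the longer fMaSC list had partners. Of 60030 LP peaks, 42513 (70.8%, interval 70.5 to 71.2%) overlapped an fMaSC peak, and 17517, or 29.2%, were LP-only. Of 79910 fMaSC peaks, 44416 (55.6%, 55.2 to 55.9%) overlapped an LP peak, and 35494, or 44.4%, were fMaSC-only. LP peaks had partners more often than fMaSC peaks on 20 of 20 chromosomes. The fMaSC list was also the longer one on each of them, by 1.16 to 1.47 times, so this order goes with list length. The LP share ran from 67.1% on chromosome 14 to 74.8% on chromosome 11, and the fMaSC share from 50.8% on chromosome 1 to 64.3% on chromosome 19. Merging both lists gave 94862 regions, of which 41852 (44.1%) held peaks of both cell types, 35493 (37.4%) of fMaSC alone and 17517 (18.5%) of LP alone. The ratio of fMaSC-only to LP-only peaks was 2.03 and the ratio of all fMaSC to all LP peaks 1.33. The ratio moved with the peaks kept. With the fMaSC list cut to its 60030 strongest peaks, 21447 fMaSC-only and 22213 LP-only peaks remained, a ratio of 0.966. The share with a partner was then 64.3% for fMaSC and 63.0% for LP. Among peaks at or above the median fold of their list, set against the whole other list, 10364 were fMaSC-only and 3755 LP-only, a ratio of 2.76.

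The unshared sequence was distributed differently on the 2 sides. fMaSC-only peaks covered 14.2 Mb, against 4.08 Mb of fMaSC sequence that stuck out beyond LP peaks at the edges of shared sites. For LP the order was the other way round: LP-only peaks covered 8.23 Mb, and the edges of shared LP peaks reached 9.38 Mb beyond the fMaSC peaks. In these lists, fMaSC sequence outside LP peaks thus lay mainly in separate sites. LP sequence outside fMaSC peaks lay about as much at the edges of common sites as in separate sites. This split was not recomputed at equal list length. In all, 29.4% of fMaSC bases and 17.4% of LP bases lay in peaks without a partner.

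Sites without a partner were narrow and of low rank. The fold that the authors' peak caller gave each peak was used as a rank within its own list, with the percentile rank running from 0 for the weakest to 100 for the strongest peak. fMaSC-only peaks had a median percentile rank of 32.5, against 67.0 for fMaSC peaks with an LP partner. LP-only peaks had a median rank of 25.6, against 61.5 for LP peaks with an fMaSC partner. Median widths were 333 bp for fMaSC-only and 634 bp for partnered fMaSC peaks, and 409 bp for LP-only and 750 bp for partnered LP peaks. Sorted into 10 classes by fold, the share of fMaSC peaks with an LP partner went from 27.3% in the weakest class to 96.8% in the strongest. LP peaks went from 41.6% to 98.7%. In every class the LP share was above the fMaSC share of the same class, with lists of unequal length. Shares by class were not recomputed at equal length. Among the strongest class, 256 of 8079 fMaSC peaks and 76 of 6067 LP peaks had no partner, so strong sites without a partner were few. Folds lay on a grid, with steps of 0.253 in fMaSC and 0.208 in LP, and every fold was within 0.02 of a whole number of steps. The lowest fMaSC peak stood at 13 steps and the lowest LP peak at 15. With 172 distinct folds in fMaSC and 177 in LP, ranks hold many ties.

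**Figure D1:**
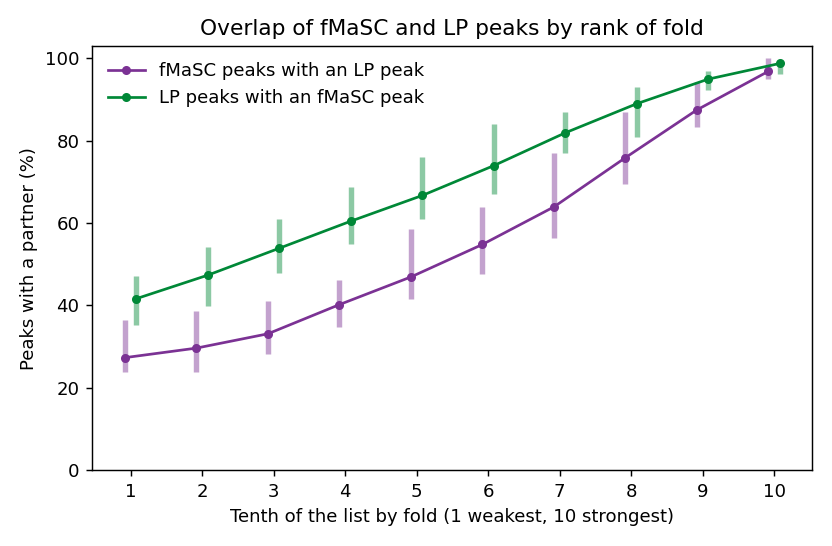
Share of peaks with a partner in the other list (y axis, %) for 10 classes of fold within each list (x axis, 1 weakest to 10 strongest). Points are shares over all chromosomes and vertical bars run from the lowest to the highest of 20 chromosomes. Both lines climb, from 27.3% to 96.8% for fMaSC and from 41.6% to 98.7% for LP.

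Width went with the same pattern. fMaSC peaks under 300 bp had an LP partner in 29.3% of cases and those of 1000 bp or more in 94.1%, while LP peaks had fMaSC partners in 44.9% and 95.5%. Since a wide peak meets another by position more readily, all peaks were also set to 500 bp around their midpoints. The shares were then 52.9% for fMaSC and 69.6% for LP, close to those with the deposited widths. Few peaks lay near the limit of 1 shared bp. Overlaps of at most 50 bp made up 138 fMaSC and 89 LP peaks, with mean percentile ranks of 19.7 and 15.1. Just outside the limit, 100 fMaSC-only and 81 LP-only peaks had a peak of the other list less than 50 bp away, with mean ranks of 23.8 and 18.7.

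At common sites LP peaks were the wider ones. Of 45077 overlapping pairs, 38986 joined 1 fMaSC peak with 1 LP peak. In 63.6% of these the LP peak was wider, with median widths of 639 bp in fMaSC and 726 bp in LP. The fMaSC peak lay wholly inside the LP peak in 41.4% of 1-to-1 pairs, the LP peak lay inside the fMaSC peak in 21.4%, and 37.2% were staggered. Midpoints were close, with a median distance of 67.5 bp. Splitting was also uneven: 2345 LP peaks held 2 or more fMaSC peaks (up to 7), and 641 fMaSC peaks held 2 or more LP peaks (up to 4).

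Strength was shared in part. Over the 38986 1-to-1 pairs, the ranks of fold had a Spearman correlation of 0.636, between 0.586 and 0.682 on single chromosomes, as a description across sites that share sequence, mappability and the caller. Of 7021 pairs in the top 10% of the fMaSC list, 3785 (53.9%) were also in the top 10% of the LP list, which is 71.4% of the 5299 pairs in the LP top 10%. A shift of more than 50 percentile points separated 2744 pairs, 1890 with the higher rank in fMaSC and 854 with the higher rank in LP. These shifted sites had different company among the other adult types. In both directions, presence was counted on the fMaSC peak of the pair. Its median width was 721 bp in pairs ranked higher in fMaSC and 283.5 bp in those ranked higher in LP. Over all 1-to-1 pairs it was 639 bp. A mature luminal peak was present at 35.2% of the pairs ranked higher in fMaSC and at 76.0% of those ranked higher in LP, against 71.6% of all 1-to-1 pairs. A basal peak was present at 84.4% and 76.6%, against 88.1% of all such pairs. Weak peaks had fewer mature luminal peaks in general, so the shifted pairs were also set against the other 1-to-1 pairs with a peak of the same fold class on the weaker side (LP for pairs ranked higher in fMaSC, and fMaSC for the reverse). In the weakest LP class, a mature luminal peak was present at 32.0% of 888 pairs ranked higher in fMaSC and at 32.5% of the 1793 others. In the next 2 LP classes the shares were 35.9% against 41.9% and 36.6% against 46.3%. These shares lay nearer to those of other pairs with a weak LP peak than to the 71.6% of all pairs. A basal peak was present at 81.1% and 68.1% in the weakest LP class. In the weakest fMaSC class, a mature luminal peak was present at 73.4% of 331 pairs ranked higher in LP and at 40.2% of the 1210 others. There a basal peak was present at 71.6% and 64.5%. The stronger side was not matched in either direction, and by selection it ranked higher in shifted pairs. From the weakest to the strongest class, the mature luminal share of partnered peaks went from 32.1% to 98.3% in LP and from 51.4% to 92.0% in fMaSC. The part of the stronger side, and that of the width of the fMaSC peak, in these contrasts was not tested.

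**Figure D2:**
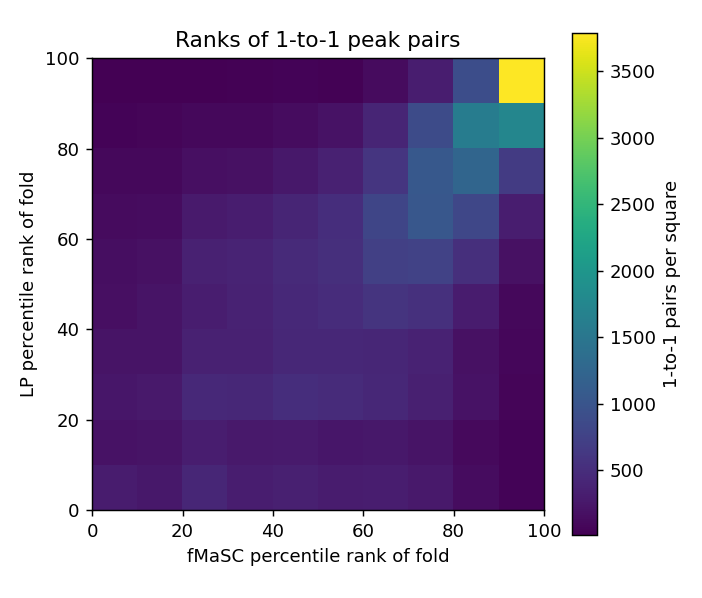
Counts of 1-to-1 peak pairs (colour) by percentile rank of fold in fMaSC (x axis) and LP (y axis), in squares of 10 points. Pairs crowd along the upper part of the diagonal, most at its end, where 3785 pairs are in the top 10% of both lists. At low ranks they are spread without crowding on the diagonal. The corners far from the diagonal are thinly filled.

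The largest shifts were narrow peaks of low rank inside wide peaks of high rank. The pair with the greatest drop from fMaSC to LP lay on chromosome 6, where an fMaSC peak from 41584343 to 41585531 (1189 bp, percentile rank 96.9) held an LP peak of 324 bp with rank 1.45. It overlapped a basal peak and no mature luminal peak. On chromosome 7 an fMaSC peak from 6733989 to 6734812 (rank 94.5) held an LP peak of rank 0.371, with a mature luminal peak and no basal peak. On chromosome 19 one from 50752744 to 50753594 (rank 93.3) held an LP peak of the same low rank, with basal and mature luminal peaks. In the opposite direction, an LP peak on chromosome 10 from 83107399 to 83108835 (1437 bp, rank 98.3) held an fMaSC peak of 227 bp with rank 2.104. It also overlapped a mature luminal peak and no basal peak. LP peaks on chromosome 6 from 7622224 to 7623682 (rank 94.99) and on chromosome 3 from 7342373 to 7343651 (rank 94.5) held fMaSC peaks of ranks 0.684 and 2.104, and both sites had basal and mature luminal peaks. In each of these 6 pairs the weaker peak lay wholly within the stronger one.

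Other adult types separated fMaSC-only from LP-only sites mainly along the mature luminal axis. A mature luminal peak was present at 12.3% of fMaSC-only peaks (4360 of 35494, interval 11.9 to 12.6%) and at 45.2% of LP-only peaks (7911 of 17517, 44.4 to 45.9%), a ratio of 3.68. On every one of the 20 chromosomes the LP-only share was the higher, with chromosome values of 7.78 to 14.6% for fMaSC-only and 39.1 to 51.8% for LP-only, so the 2 ranges did not meet. Basal peaks were nearer to even, at 46.5% of fMaSC-only (46.0 to 47.0%) and 40.3% of LP-only peaks (39.6 to 41.1%). The fMaSC-only share was higher on 17 chromosomes and lower on chromosomes 10, 14 and X. On X it was 32.2% against 39.8%. With each list cut to its 30015 strongest peaks, where a site counts as list-only although the other list may hold a weaker peak there, basal shares were 75.2% and 74.3%, and mature luminal shares 31.2% and 73.1%. Among peaks at or above the median fold without any partner, basal shares were 60.2% and 52.8%, and mature luminal shares 14.9% and 65.0%. The mature luminal difference was over 30 points in both selections, and the basal one 0.938 and 7.47 points. Sites with a partner held a basal peak in 88.8% of fMaSC and 88.7% of LP peaks and a mature luminal peak in 72.4% and 72.5%. Over all peaks of each list, the mature luminal share was 45.7% in fMaSC and 64.5% in LP, and the basal share 70.0% and 74.6%. Both list-only groups thus lay below their whole list for both adult types.

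**Figure D3:**
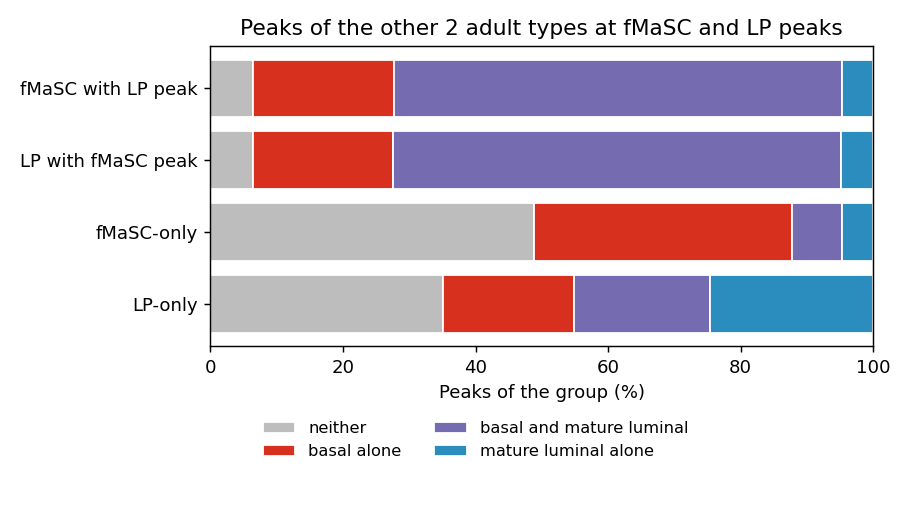
Share of peaks (x axis, %) in each of 4 groups that overlapped a peak of basal cells alone, mature luminal cells alone, both or neither (colours). Among fMaSC-only peaks 48.8% met neither and 38.9% basal alone; among LP-only peaks the 4 patterns held 35.0%, 19.8%, 24.6% and 20.5% (neither, basal alone, mature luminal alone, both). Partnered peaks mostly met both types.

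By pattern, 17328 fMaSC-only peaks (48.8%) were met by neither basal nor mature luminal peaks, 13806 (38.9%) by basal peaks alone, 1669 (4.70%) by mature luminal peaks alone and 2691 (7.58%) by both. LP-only peaks were spread more evenly, with 6136 (35.0%) met by neither, 3470 (19.8%) by basal alone, 4313 (24.6%) by mature luminal alone and 3598 (20.5%) by both. Rank sharpened the contrast at the deposited widths. Among the 256 fMaSC-only peaks of the strongest class, 156 (60.9%, interval 54.7 to 67.0%) overlapped a basal peak alone and 10 (3.91%, 1.89 to 7.07%) a mature luminal peak alone. Among the 76 LP-only peaks of the strongest class, 42 (55.3%, 43.4 to 66.7%) overlapped both, 19 (25.0%, 15.8 to 36.3%) mature luminal alone and 7 (9.21%, 3.79 to 18.1%) basal alone. From the weakest to the strongest class, the share of fMaSC-only peaks with a basal peak went from 34.7% to 74.6%, and with a mature luminal peak from 9.48% to 17.6%. For LP-only peaks the basal share went from 31.8% to 64.5% and the mature luminal share from 29.0% to 80.3%. Strong fMaSC-only sites were therefore mostly sites with an adult basal peak. Strong LP-only sites were mostly sites with a mature luminal peak, and often with a basal peak too. Partnered peaks of the strongest class held a basal peak more often still, in 99.0% of fMaSC and 99.1% of LP peaks. Their mature luminal shares were 92.0% and 98.3%. In partnered peaks, too, these shares rose from the weakest class, where basal peaks met 71.9% and 72.9% and mature luminal peaks 51.4% and 32.1%. Stronger classes hold wider peaks. With all peaks set to 500 bp, the basal share of fMaSC-only peaks still went from 30.1% in the weakest to 61.7% in the strongest class, and that of LP-only peaks from 26.3% to 64.1%. The mature luminal share went from 10.1% to 36.2% in fMaSC-only and from 27.9% to 61.8% in LP-only peaks. In the strongest class the mature luminal contrast was smaller at that width and the order of the basal shares was reversed, but the groups had changed as well. That class then held 519 fMaSC-only and 262 LP-only peaks, so it included peaks that had a partner at their deposited widths. The part of these added peaks was not tested.

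SOX10 is a SOX-family transcription factor known for its role in neural crest and glial cells. The PY230 lists were compared with both groups to see how the tumour regions fall on the fetal and progenitor sides. Regions open in SOX10-high cells overlapped 777 LP-only peaks (4.44%, interval 4.14 to 4.75%) and 564 fMaSC-only peaks (1.59%, 1.46 to 1.72%), against 2.89% of all LP and 1.92% of all fMaSC peaks. Closed regions overlapped 2509 LP-only peaks (14.3%, 13.8 to 14.9%) and 1630 fMaSC-only peaks (4.59%, 4.38 to 4.82%), against 8.41% of all LP and 5.27% of all fMaSC peaks. LP-only sites were thus met more often than fMaSC-only sites in both directions, by 2.79 times for open and 3.12 times for closed regions, on 20 of 20 chromosomes each. Cut to 30015 peaks by fold in both lists, the shares in open regions were 3.98% and 3.45%, and in closed regions 10.5% and 6.65%, a smaller contrast in both. For open regions the intervals then overlapped, at 3.61 to 4.37% for LP-only and 3.10 to 3.83% for fMaSC-only peaks. That cut counts as list-only also sites where the other list holds a weaker peak. Among peaks at or above the median fold without any partner, open regions met 5.81% of LP-only and 2.43% of fMaSC-only peaks, and closed regions 14.1% and 5.20%. In the strongest class the shares in closed regions were 6.58% (5 of 76) and 5.47% (14 of 256), with overlapping intervals of 2.17 to 14.7% and 3.02 to 9.01%. Read from the tumour lists, 932 of 3208 open regions (29.1%) held peaks of both cell types, 629 (19.6%) of LP alone, 466 (14.5%) of fMaSC alone and 1181 (36.8%) of neither. Of 15108 closed regions, 2496 (16.5%) held both, 2255 (14.9%) LP alone, 1378 (9.12%) fMaSC alone and 8979 (59.4%) neither.

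The other adult types moved with these overlaps. Closed regions were concentrated where a mature luminal peak was present: they met 36.6% of LP-only and 27.9% of fMaSC-only peaks with a mature luminal peak alone, but 1.14% and 1.04% of those with neither adult type. Open regions were the opposite. They met 593 of 6136 LP-only peaks without basal or mature luminal peaks (9.66%) and 0.672% of those with a mature luminal peak alone. For fMaSC-only peaks these shares were 2.18% and 0.479%. Peaks that fMaSC and LP shared and that neither other adult type held were met most often, at 11.7% of fMaSC and 12.05% of LP peaks in that pattern. Within the same pattern, then, LP-only and shared sites were in open regions more often than fMaSC-only sites.

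Overlap with open regions ran in opposite directions with rank in list-only and partnered peaks. From the weakest to the strongest class it went from 3.51% to 10.5% in LP-only and from 1.27% to 5.08% in fMaSC-only peaks. In partnered peaks it went from 3.003% to 0.601% in LP and from 3.19% to 1.29% in fMaSC. The strongest class held 8 of 76 LP-only peaks in open regions (interval 4.66 to 19.7%) and 13 of 256 fMaSC-only peaks (2.73 to 8.53%), so the upper ends of these lines rest on few peaks. Stronger peaks are also wider, with medians of 1620 bp in the LP and 1235 bp in the fMaSC top class against 303 bp and 250 bp in the bottom class. The share of partnered peaks in open regions went down over the same classes, and the part of width in these lines was not tested.

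**Figure D4:**
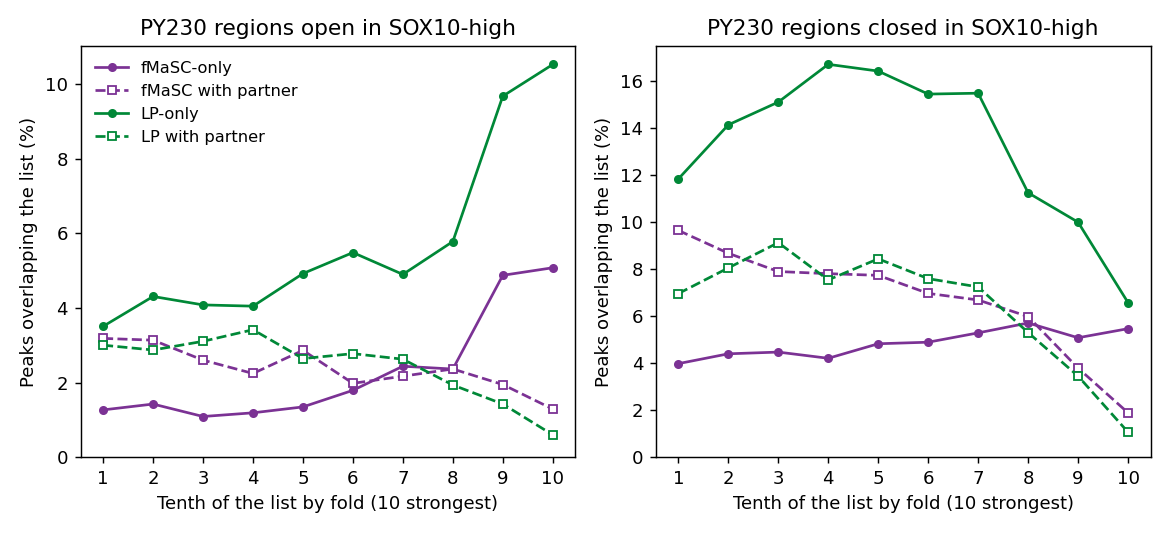
Share of peaks (y axis, %) that overlapped PY230 regions open (left) or closed (right) in SOX10-high cells, by class of fold within the list (x axis, 10 strongest), for list-only peaks (filled) and peaks with a partner (open symbols). In the open list the filled lines end higher than they begin, at 10.5% for LP-only and 5.08% for fMaSC-only, and the partnered lines end lower, at 0.601% and 1.29%. The y axes differ between panels.

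For each normal type the authors also deposited a UAR and a URR list, abbreviations that the labels do not expand. The sources used here do not say how they were called, and they may draw on the same libraries, so their overlaps describe the lists and give no independent support. Most UARs of these 2 types lay on list-only ground. Of 1222 fMaSC UARs, 1020 (83.5%, interval 81.3 to 85.5%) held an fMaSC peak and no LP peak, and of 306 LP UARs, 221 (72.2%, 66.8 to 77.2%) held an LP peak and no fMaSC peak. Yet they covered a small part of the unshared sites: 3.24% of fMaSC-only and 1.51% of LP-only peaks were in a UAR of their own type. In the strongest class these shares were 41.8% (107 of 256) and 21.1% (16 of 76). The fMaSC-only peaks in UARs had a median percentile rank of 74.0 and the LP-only ones 70.5.

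UARs of the other adult types split the pair unevenly. Mature luminal UARs held 6.43% of LP-only peaks (1126) and 0.299% of fMaSC-only peaks (106), a ratio of 21.5. Of 3282 such UARs, 1007 (30.7%) held LP alone and 69 (2.102%) fMaSC alone. Basal UARs went the other way, with 4.01% of fMaSC-only peaks (1423) and 2.14% of LP-only peaks (374). Of 5144 basal UARs, 1088 (21.2%) held fMaSC alone, 237 (4.61%) LP alone and 1112 (21.6%) both. URRs of mature luminal and basal cells were nearly all common ground of fMaSC and LP: 1025 of 1028 and 71 of 71 held peaks of both. fMaSC URRs held 176 LP-only peaks (1.00%) and 1 fMaSC-only peak. They include 19 of the 76 strongest-class LP-only peaks (25.0%). LP URRs held 18 fMaSC-only peaks and 0 of 17517 LP-only peaks, which allows a share of up to 0.0171% by a limit of 3 counts (0.0211% by the exact interval). The 3 fMaSC UARs of highest score lay on chromosome 5 from 122146401 to 122147300, chromosome 18 from 64844501 to 64845200 and chromosome 12 from 80780901 to 80782300. None held an LP peak, and the fMaSC peaks in them had percentile ranks of 77.1, 81.2 and 88.5. The 3 LP UARs of highest score lay on chromosome 5 from 39176501 to 39178200, chromosome 7 from 34798301 to 34800000 and chromosome 8 from 96207101 to 96209000. None held an fMaSC peak, and their LP peaks ranked at 93.2, 92.4 and 88.9.

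fMaSC-only sites reached further into parts of the genome without LP peaks than LP-only sites did into parts without fMaSC peaks. The gap from an fMaSC-only peak to the nearest LP peak had a median of 11709 bp (quartiles 3536 and 38486 bp), and the gap from an LP-only peak to the nearest fMaSC peak a median of 4747 bp (1561 and 12675 bp). Gaps of 100 kb or more were found for 4257 fMaSC-only peaks (11.99%, interval 11.7 to 12.3%) and 204 LP-only peaks (1.16%, 1.01 to 1.33%). Between peaks of the same list the median gap was 4588 bp in fMaSC and 4610 bp in LP. With the fMaSC list cut to its 60030 strongest peaks, the median gaps were 12305 bp and 6148 bp, and gaps of 100 kb or more were found for 12.3% of fMaSC-only and 2.22% of LP-only peaks. With the 30015 strongest of both, these shares were 18.1% and 6.19%. The remote fMaSC-only peaks had the median percentile rank of their group, 32.5, a value with many ties, and a median width of 346 bp. A larger part of them was in the strongest class, 57 of 4257, against 256 of all 35494 and 9 of 3427 under 1 kb away. The remote peaks had fewer adult counterparts. A basal peak was present at 24.3% of fMaSC-only peaks 100 kb or more from LP peaks and at 60.1% of those under 1 kb away, and neither adult type was present at 69.3% and 35.8%. The corresponding shares for mature luminal peaks were 10.1% and 15.8%. In LP-only peaks the basal share likewise went from 52.7% under 1 kb to 20.6% at 100 kb or more, while the mature luminal share stayed between 39.6% and 47.4% in all 4 distance classes. The share in PY230 closed regions went from 6.01% to 22.1% of LP-only peaks over these classes and from 5.05% to 2.94% of fMaSC-only peaks.

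**Figure D5:**
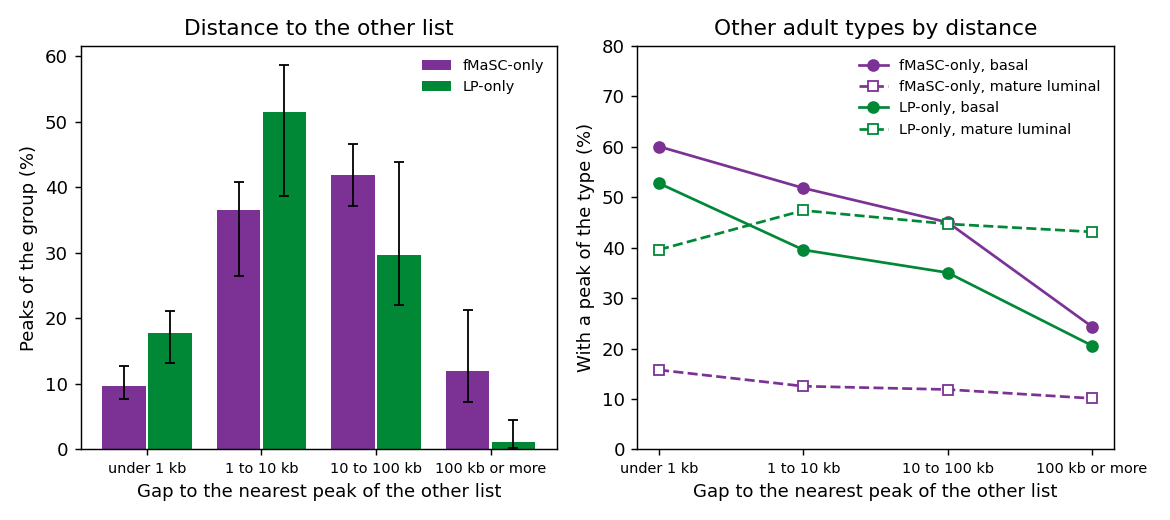
Left, share of fMaSC-only and LP-only peaks (y axis, %) by gap to the nearest peak of the other list; error bars run from the lowest to the highest of 20 chromosomes. Right, share of the same peaks with a basal or a mature luminal peak. In the class of 100 kb or more stand 11.99% of fMaSC-only and 1.16% of LP-only peaks, and basal shares there are 24.3% and 20.6%.

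Stretches with fMaSC peaks and no LP peak were long. Walking along the merged regions of both lists, 25.6% of fMaSC-only regions and 3.94% of LP-only regions stood in runs of 5 or more with no region of the other kind between them. There were 1229 such runs for fMaSC, 207 of them with 10 or more regions, and 117 for LP, 3 of them with 10 or more. The longest run held 59 fMaSC-only peaks over 7209 kb of chromosome 8, from 99184634 to 106393940. Of these 59 peaks, 15 met a basal peak, 1 a mature luminal peak and 44 neither, and their median percentile rank was 47.0. The whole span held 22 basal and 16 mature luminal peaks, so it was not free of peaks in the other adult types. The next runs held 29 peaks over 1255 kb of chromosome 8 from 120333495 to 121588711 and 27 peaks over 3373 kb of chromosome 8 from 49929670 to 53302525. LP-only runs were short in span. The longest held 12 peaks over 67.1 kb of chromosome 5 from 14978011 to 15045082, 9 of them with a mature luminal peak, and the next 11 peaks over 58.2 kb of chromosome X from 47903410 to 47961602, all 11 of them with a mature luminal and 10 with a basal peak. The third held 10 peaks over 28.9 kb of chromosome 8 from 28250561 to 28279431, 3 of them with a mature luminal peak and 7 with neither adult type, at a median percentile rank of 6.37. With the fMaSC list cut to the length of the LP list, 16.5% of fMaSC-only and 7.53% of LP-only regions stood in such runs, and with the 30015 strongest of both lists 9.63% and 5.57%, so the contrast was smaller at equal length.

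By density rather than by runs, the 3 densest windows of 1 Mb for fMaSC-only peaks held 62 each. Their first bases were 136913572 of chromosome 1, 140230463 of chromosome 4 and 129005783 of chromosome 8, and they also held 18, 11 and 13 LP-only peaks. For LP-only peaks the densest window began at 9270805 on chromosome 2 with 41 LP-only and 21 fMaSC-only peaks. The next started on chromosome 7 (base 19585944) and chromosome 15 (base 25117951), with 39 LP-only peaks each and 36 and 22 fMaSC-only peaks. These places moved with window size. With windows of 500 kb, the 3 densest met 0 of the 3 fMaSC-only and 1 of the 3 LP-only windows again, and with windows of 2 Mb they met 2 and 1.

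The strongest fMaSC-only site, on chromosome 10 from 113543365 to 113544497 (1133 bp), had a percentile rank of 99.5 and stood at place 383 of the fMaSC list. It lay 673879 bp from the nearest LP peak, overlapped a basal peak and belonged to an fMaSC UAR. The next were on chromosome 1 from 125743141 to 125744206 (rank 99.4) with a basal peak, on chromosome 1 from 160285793 to 160286839 (rank 98.9), in an fMaSC UAR and with basal and mature luminal peaks, on chromosome 1 from 140888627 to 140889808 (rank 98.8) with a basal peak, and on chromosome 16 from 76740312 to 76742310 (rank 98.7) with a basal peak. All 5 of these sites were thus open in adult basal cells, and 3 of the 5 lay on chromosome 1. Among fMaSC-only peaks that neither other adult type held, the strongest lay on chromosome 12 from 120313292 to 120314301 (rank 98.5). It was followed by chromosome 16 from 81353084 to 81354198 (rank 98.1), chromosome 9 from 32475513 to 32476364 (rank 97.8), chromosome 3 from 155064515 to 155065236 (rank 97.4) and chromosome 2 from 116026643 to 116027871 (rank 97.3). Each of these 5 lay in an fMaSC UAR, and those on chromosomes 16 and 3 also lay in PY230 regions open in SOX10-high cells.

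The strongest LP-only site, on chromosome 9 from 3023960 to 3024667 (rank 99.4), stood at place 340 of the LP list and lay 272 bp from an fMaSC peak, with basal and mature luminal peaks over it. Whether it lies in repeated sequence was not tested. Next came chromosome 7 from 65931746 to 65933112 (rank 99.1), in an fMaSC URR and with basal and mature luminal peaks, and chromosome 12 from 10520030 to 10521879 (rank 98.5) with a basal peak alone. Chromosome 18 from 21128127 to 21130643 (2517 bp, rank 97.9) had both adult types and lay in an open PY230 region, and chromosome 17 from 4768852 to 4770178 (rank 97.6) had both adult types. All 5 overlapped a basal peak, as did the 5 strongest fMaSC-only sites, and 4 of the 5 also overlapped a mature luminal peak, against 1 of the 5 for fMaSC-only. LP-only sites without the other adult types began lower in the list. The first lay on chromosome 10 from 38696950 to 38698232 (rank 96.6), 2353 bp from an fMaSC peak. The others were on chromosome 17 from 68280116 to 68281218 (rank 95.8), chromosome 8 from 69951692 to 69953179 (rank 94.0), chromosome 5 from 39176636 to 39178015 (rank 93.2) and chromosome 7 from 34798700 to 34799867 (rank 92.4). All 5 lay in LP UARs, and those on chromosomes 17, 8 and 7 lay in open PY230 regions.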

How the data were processed

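Peaks were called by MACS2 at a q-value of 0.001 on both samples of a cell type together, per the labels and list names. Column 5 of these lists is a fold, the authors' ratio of enrichment over the caller's background, used here as a rank within its list. The UAR, URR and PY230 lists carry a score deposited by the authors, on a scale the sources used here do not state, used to order named regions. The submitters' processing notes name MACS2 2.1.1, Bowtie 0.12.8, bedtools 2.20.1, SAMtools 1.3.1, FastQC, SICER and build mm9, without roles. Treatment of duplicates, repeats and the Tn5 offset is likewise not stated and could change which peaks exist.

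Positions are 1-based mm9. Peak lists were kept as deposited, regions on a 100 bp grid were moved by 1 base, and 3 mitochondrial peaks per list were left out. The gene table at hand is of another build, so genes, marker lists, motifs and sequences were not used here. The members and lists were chosen with earlier results of these data known. Distance classes, runs, width classes, their values at equal list length, and fixed width and paired ranks by class were added after the data were seen. Named regions are the 5 peaks of highest fold per group, with and without peaks of the other adult types, the 3 largest rank shifts each way, the 3 densest windows and longest runs, and the 3 UARs of highest score. Alternatives changed the overlap, list length, fold, width, chromosomes, merging and window size. Tools were Python 3.11.15 with pandas 2.3.3, numpy 2.4.6, scipy 1.17.1 and matplotlib 3.10.9. Overlap code was tested on 5 simulated pairs of lists against bedtools 2.31.1 and direct enumeration.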

Additional observations from a re-analysis of the deposited data

How the results depend on the processing

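Each list pools both samples, so no sample could be left out. No paired analysis was possible because the results come from pooled lists and from no test. The share of fMaSC peaks with an LP partner and that of LP peaks with an fMaSC partner were 52.1% and 61.9% when 50% of the peak had to be covered. They were 66.6% and 65.6% with the 30015 strongest peaks of both lists, and 64.3% and 63.0% with the 60030 strongest fMaSC peaks, so the fMaSC share became the higher. They were 74.9% and 87.7% for peaks at or above the median fold against the whole other list, and 52.9% and 69.6% at a fixed width of 500 bp. Merging peaks within 500 bp gave 72.5% for LP. The Jaccard index over bases, 0.454 with all peaks (0.425 to 0.496 on single chromosomes), was 0.472 with 30015 peaks, 0.460 with 60030 fMaSC peaks, 0.313 at a fixed width, 0.4539 on autosomes and 0.458 after merging. fMaSC-only minus LP-only shares kept their sign in 7 of 7 alternatives for basal peaks (0.938 to 7.47 points) and for mature luminal peaks (-50.1 to -30.8 points), and in 5 of 5 for open (-3.37 to -0.526 points) and closed PY230 regions (-9.83 to -3.80 points). The PY230 shares were not computed with the 60030 strongest fMaSC peaks or after merging. Over all 7 alternatives the number of fMaSC-only peaks per LP-only peak ran from 0.966 to 2.76. Alternatives on motifs and on nearest genes were not run, since no mm9 sequence or annotation was used here. Pooled lists without counts limit every value to a description of these libraries.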

Other observations

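Both kinds of list-only peak tended to lie in the same broad parts of the genome. Across 2528 bins of 1 Mb with a peak of either list, counts of fMaSC-only and LP-only peaks had a Spearman correlation of 0.548, and counts of all fMaSC and all LP peaks one of 0.932, as a description over bins that share gene density and mappability. fMaSC-only peaks outnumbered LP-only peaks in 2076 bins and were outnumbered in 354. There were 181 bins with fMaSC-only peaks and no LP peak, and 6 with LP-only peaks and no fMaSC peak.

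Chromosomes differed in the balance. The number of fMaSC-only peaks per LP-only peak was 2.53 on chromosome 1 and 1.43 on chromosome 19. Chromosome X held 2.17% of fMaSC-only (interval 2.02 to 2.33%) and 2.44% of LP-only peaks (2.21 to 2.68%). It had the highest share of remote sites in both groups, with 21.3% of its fMaSC-only and 4.45% of its LP-only peaks 100 kb or more from the other list. The lowest share with open PY230 regions among LP-only peaks was also on X, at 1.64%, and the highest on chromosome 19, at 9.16%.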
